A study of Mus musculus with 8 samples.

Results

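The genes described here are 10 cell cycle regulators of mouse embryonic stem cells (mESCs): the D-type cyclin genes Ccnd1, Ccnd2 and Ccnd3, the E-type cyclin genes Ccne1 and Ccne2, the A-type cyclin gene Ccna2, the B-type cyclin genes Ccnb1 and Ccnb2, and the inhibitor genes Cdkn1b and Cdkn2a. They were chosen by symbol, and each symbol matched 1 of the 50686 Ensembl gene identifiers in the count table. All 10 passed the filter on low counts and were among the 20473 genes tested. The count table holds 8 RNA-seq libraries, 1 for each combination of location (Space, cells carried on the SJ-10 satellite, or Ground), genotype (R9wt, wild type, or R9del, Rad9-/-) and culture duration (D1, 1 day, or D5, 5 days). All 8 are mESC cultures, and the genotype groups differ in Rad9, which encodes a DNA damage checkpoint protein. No condition had a second library. Each variable was therefore compared over 4 against 4 libraries that also differ in the other variables, and the p-values measure the spread across those conditions rather than across repeated cultures. The 1-day and 5-day cultures were kept in separate device groups and seeded at different densities. In space the 1-day cells were fixed earlier and then stored until the return, and the ground cultures followed the same procedure. Duration, device group, seeding and storage time after fixation therefore cannot be told apart. The study also seeded more R9del than R9wt cells for the 5-day cultures, so genotype and seeding cannot be told apart in the D5 pairs. Space and ground cultures also differed in radiation and in the vibration of launch and return, which cannot be told apart from weightlessness.

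The library totals ran from 58238440 to 67640365 counts in the 4 space libraries and from 65678502 to 96416907 in the 4 ground libraries, and levels below are in CPM, counts scaled to a common library total, after TMM scaling for library composition. A count of 3 corresponded to 0.0327 to 0.0514 CPM, below every value given for the 10 genes. Rad9, the deleted gene, stood at 70.6 to 91.5 CPM in the R9wt libraries and at 20.9 to 28.1 CPM in the R9del libraries (log2 fold change -1.75, adjusted p = 0.0277 in edgeR's quasi-likelihood test), in the direction of the labels. The mESC marker genes measured, Pou5f1 and Nanog among them, summed to 4505 to 7849 CPM in every library, and the 10 fibroblast genes summed to 28.3 to 89.9 CPM, with the highest sum in Space_R9wt_D5. Within that list Postn, Dcn and Lum were at or below 0.115 CPM throughout, while Thy1 was at 11.8 to 37.8 CPM and Acta2 reached 37.3 CPM. Trophoblast markers summed to 12.3 to 342 CPM, with the highest sum in Space_R9wt_D5, and primitive endoderm markers to 440 to 1853 CPM, with the highest sum in Space_R9del_D5.

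Cyclins are the regulatory subunits of cyclin-dependent kinases (CDKs). D-type cyclins act with CDK4 and CDK6 to phosphorylate the retinoblastoma protein in G1 phase, E-type cyclins act with CDK2 at entry into S phase, cyclin A2 acts with CDK2 and CDK1 in S phase and G2 phase, and B-type cyclins act with CDK1 in mitosis. Cdkn1b encodes p27, which inhibits cyclin E-CDK2 and related complexes. Cdkn2a encodes p16Ink4a, which inhibits CDK4 and CDK6, and, from an upstream start and in another reading frame, p19Arf, which stabilises p53. Cultured mESCs are known for a short G1 phase, high cyclin E and little CDK inhibitor.

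Promoter windows were available for 6 of the 10 genes: Ccnd3, Ccne1, Ccnb1, Ccnb2, Cdkn1b and Cdkn2a. They were taken from RefSeq (GRCm38.p6), and all 8 windows of these genes, since Ccnd3 and Cdkn2a have 2 starts each, were found exactly once in the mm9 genome used for the count table. The windows below are shown because Ccne1 was called between space and ground and the B-type genes were not, and because Cdkn2a has 2 starts. Each runs from 250 bases before the start to 30 bases after it. Capitals mark the motif letters searched, on both strands: the CCAAT box CCAAT, the cell cycle homology region (CHR) TTTGAA or TTCGAA, the E2F letters TTTGGCGC, TTTCCCGC, TTTCGCGC or TTTGCCGC, and the shorter E2F core GGCGGGA, which can share bases with an E2F match. The CRE letters TGACGTCA were searched too and were in none of the 8 windows.
Ccne1 (mm9 chr7:38892480-38892759, minus strand): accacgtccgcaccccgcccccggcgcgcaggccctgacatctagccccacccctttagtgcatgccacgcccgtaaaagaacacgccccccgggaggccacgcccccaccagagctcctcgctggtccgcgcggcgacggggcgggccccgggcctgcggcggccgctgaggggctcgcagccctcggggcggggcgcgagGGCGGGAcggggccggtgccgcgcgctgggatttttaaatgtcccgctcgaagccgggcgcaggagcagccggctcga
Ccnb1 (mm9 chr13:101556412-101556691, minus strand): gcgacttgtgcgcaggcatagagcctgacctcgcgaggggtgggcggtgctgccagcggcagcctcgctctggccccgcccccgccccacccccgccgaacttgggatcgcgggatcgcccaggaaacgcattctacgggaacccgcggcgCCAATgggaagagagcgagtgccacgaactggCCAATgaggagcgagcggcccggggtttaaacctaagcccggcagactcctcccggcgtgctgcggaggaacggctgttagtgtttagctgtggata
Ccnb2 (mm9 chr9:70269332-70269611, minus strand): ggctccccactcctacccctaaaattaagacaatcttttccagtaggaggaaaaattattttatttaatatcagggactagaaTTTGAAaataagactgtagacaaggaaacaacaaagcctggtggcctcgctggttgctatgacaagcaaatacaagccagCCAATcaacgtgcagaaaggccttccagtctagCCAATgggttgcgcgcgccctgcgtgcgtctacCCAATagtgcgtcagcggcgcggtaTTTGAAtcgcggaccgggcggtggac
Cdkn2a upstream start (mm9 chr4:88940494-88940773, minus strand): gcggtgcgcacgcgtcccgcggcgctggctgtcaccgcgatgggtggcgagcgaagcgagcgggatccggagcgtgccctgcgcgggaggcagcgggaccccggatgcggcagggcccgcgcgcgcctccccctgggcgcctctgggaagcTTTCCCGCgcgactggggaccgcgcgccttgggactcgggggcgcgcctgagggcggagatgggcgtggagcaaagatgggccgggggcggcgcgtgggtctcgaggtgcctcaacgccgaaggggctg
Cdkn2a downstream start (mm9 chr4:88928067-88928346, minus strand): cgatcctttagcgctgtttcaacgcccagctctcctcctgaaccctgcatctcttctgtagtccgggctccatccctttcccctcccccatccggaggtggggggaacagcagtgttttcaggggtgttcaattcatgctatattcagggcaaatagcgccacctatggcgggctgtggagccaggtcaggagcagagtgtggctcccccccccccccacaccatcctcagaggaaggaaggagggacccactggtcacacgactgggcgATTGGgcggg
Positions count the first base of the transcript as 1, and the base before it as -1. Ccnb1 held 2 CCAAT boxes, at -99 and -67. Ccnb2 held 3, at -87, -54 and -21, and CHR letters at -167 and at 5. Ccne1 held neither, and 1 E2F core at -48. The upstream start of Cdkn2a held E2F letters at -99, and the downstream start only a CCAAT box on the opposite strand, at 21. Of the genes whose windows are not shown, Cdkn1b held CCAAT boxes at -161, at -35 and, on the opposite strand, at 46. The downstream start of Ccnd3 held 1 at -108, so CCAAT boxes were not confined to the B-type genes. Among 32851 mouse promoter windows of 300 bases, 37.4% held a CCAAT box, 17.9% TTTGAA, 1.56% TTCGAA, 2.26% E2F letters, 11.3% the E2F core and 1.79% the CRE, so a CCAAT box or TTTGAA alone is common.

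The levels of the 10 genes were first placed in order per length, as RPKM (CPM per kilobase of annotated exon). By the median over the 8 libraries, Ccnb2 came first at 249 RPKM, followed by Ccnd3 at 143, Ccnb1 at 137, Ccne1 at 43.9, Ccna2 at 33.8 and Ccnd1 at 22.6 RPKM. Ccne2 at 7.43, Cdkn2a at 6.66, Ccnd2 at 3.68 and Cdkn1b at 1.37 RPKM formed the low end. The ranges of every 2 neighbours in this order overlapped. Ccnb2 was first in 7 of 8 libraries, with Ccnd3 first in Ground_R9del_D1. Cdkn1b was last in 7 of 8, with Ccnd2 last in Ground_R9del_D5. The level of Ccne1 spread furthest, 17.6-fold between its lowest and highest library, and that of Ccnb1 least, 1.91-fold. The plot of CPM by library shows these values with the 4 matched pairs of ground and space cultures.

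**Figure D1:**
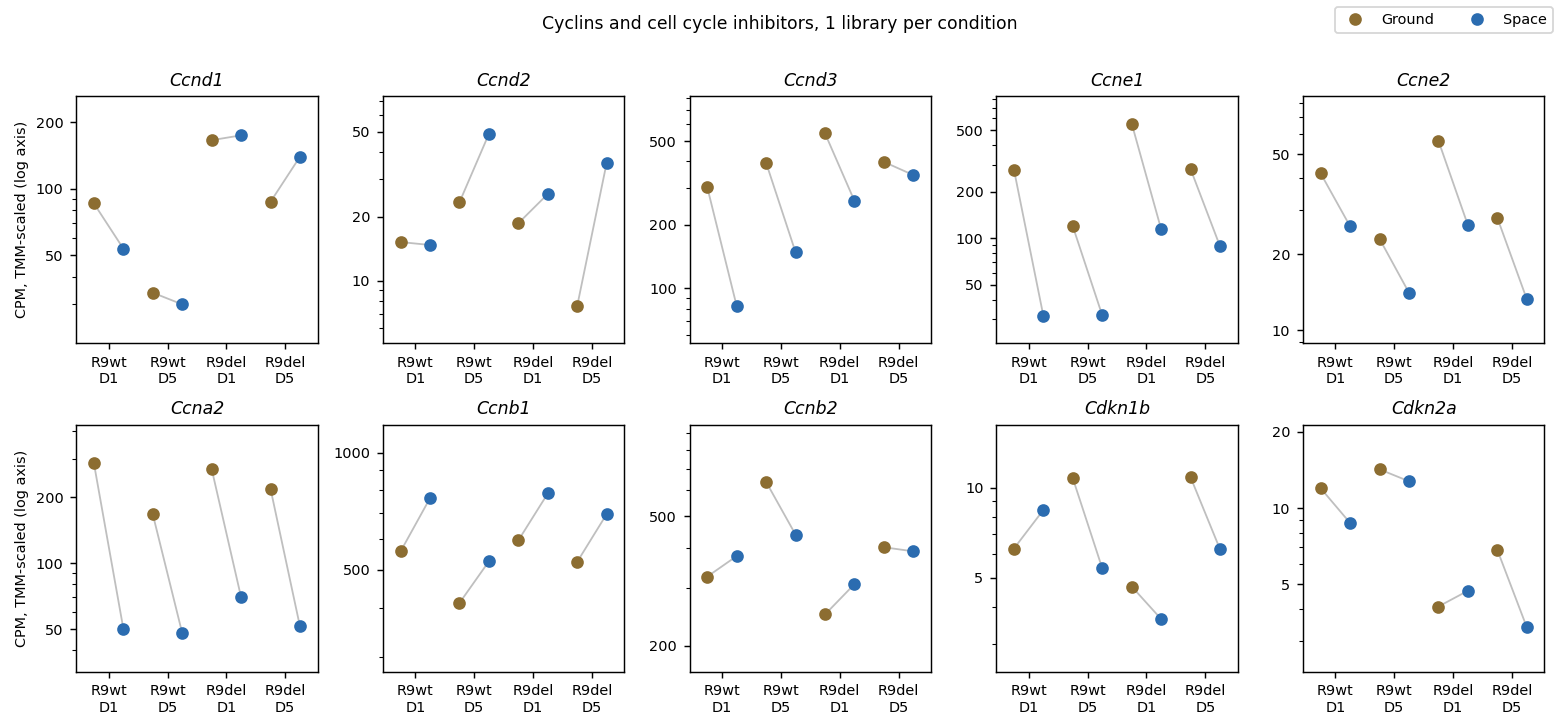
CPM (TMM-scaled, log axis) of each of the 10 genes in the 8 libraries, by genotype and culture duration, 1 point per library, with a grey line joining each ground culture to its matched space culture. Every line falls for Ccna2, Ccne1, Ccne2 and Ccnd3 and rises for Ccnb1, and R9del points of Ccnd1 lie above and those of Cdkn2a below all R9wt points.

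The first comparison asks how space culture differed from ground culture. Ccna2 and Ccne1 were lower in all 4 space libraries than in any ground library, by 4.29-fold and 4.61-fold in the fit, and no member was called higher. The 2 called genes are the S-phase cyclin A2 gene and the main cyclin E gene of these cells. The B-type cyclin genes Ccnb1 and Ccnb2, at 0.41 and -0.09 on the log2 scale, were not called. Cell type markers moved with location too. By edgeR's quasi-likelihood test the mESC marker Sox2 was called lower in space (log2 fold change -0.94, adjusted p = 0.0317) and Esrrb, of the same list, higher (1.20, 0.00635). The primitive endoderm marker Sox17 (-3.89, edgeR adjusted p = 0.0187) and the trophoblast marker Cdx2 (-2.999, 0.0329) were called lower, each from at most 0.773 CPM in space. Their lists pointed the other way, with 4 of 6 primitive endoderm and 3 of 4 trophoblast markers tested above 0 (medians 0.59 and 0.76 on the log2 scale) and none of those called. The called markers were 2 of 9 mESC, 1 of 6 primitive endoderm and 1 of 4 trophoblast markers tested, and their part in the cyclin values was not tested. Of all genes tested, 5.13% were called lower and 1.19% higher at an adjusted p under 0.05, and 2 of the 10 members were called lower.

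Ccna2 (ENSMUSG00000027715, mm9 chr3:36463788-36471072, minus strand) encodes the cyclin of S phase and G2 phase. Its level was 286 and 167 CPM in the ground R9wt cultures of D1 and D5 and 269 and 218 CPM in the R9del cultures of D1 and D5. In space it was 50.2 and 47.9 CPM in the R9wt cultures of D1 and D5 and 69.9 and 51.4 CPM in the R9del cultures of D1 and D5. The highest space value lay below the lowest ground value, and all 4 matched pairs differed by more than 2-fold. The means were 54.9 ± 10.1 CPM in space and 235 ± 53.6 CPM on the ground (SD, n = 4 each), with a log2 fold change of -2.10 (SE 0.23) and an adjusted p of 0.000434 in edgeR's quasi-likelihood test. The call held when any 1 library was left out, with adjusted p from 0.000408 to 0.00315 in the same edgeR test.

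Ccne1 (ENSMUSG00000002068, mm9 chr7:38883003-38892553, minus strand) encodes the cyclin E1 that drives entry into S phase. Its level was 277 and 119 CPM in the ground R9wt cultures of D1 and D5 and 552 and 280 CPM in the R9del cultures of D1 and D5. In space it was 31.5 and 31.7 CPM in the R9wt cultures of D1 and D5 and 115 and 88.8 CPM in the R9del cultures of D1 and D5. The groups did not overlap, and again every matched pair differed by more than 2-fold, but within each location the R9del cultures stood above the R9wt cultures of the same day. The means were 66.6 ± 41.8 CPM in space and 307 ± 180 CPM on the ground (SD, n = 4 each). This was a log2 fold change of -2.21 (SE 0.55), with an adjusted p of 0.0428 in edgeR's quasi-likelihood test. This call was near the threshold. Leaving out 1 library raised the edgeR adjusted p to 0.0862 without Ground_R9del_D5, 0.0997 without Ground_R9del_D1, 0.0881 without Ground_R9wt_D1, 0.0808 without Space_R9del_D5, 0.113 without Space_R9wt_D5 and 0.0884 without Space_R9wt_D1, and without the filter on low counts it was 0.0505. A block for matched pairs, under which 8.68% of all tested genes were called, kept it called.

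The same 2 genes were the members past the threshold of the study (at least 2-fold and an unadjusted p under 0.05), which 7.97% of tested genes passed downwards. They were also the members whose groups lay apart downwards, against 8.9% of tested genes, and the members lower by more than 2-fold in all 4 pairs, against 4.76%.

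Ccne2 (ENSMUSG00000028212, mm9 chr4:11118498-11131926, plus strand), the second cyclin E gene, was 41.9 and 23.0 CPM in the ground R9wt cultures of D1 and D5 and 56.5 and 27.9 CPM in the R9del cultures of D1 and D5. In space it was 25.8, 14.1, 26.1 and 13.3 CPM in the same order. Each space value lay below its matched ground value, although the groups overlapped across days. The log2 fold change was -0.91 (SE 0.36, adjusted p = 0.197 in edgeR's quasi-likelihood test), and a block for matched pairs made it a call (edgeR adjusted p = 0.0378). The share of all tested genes with every matched pair in the same direction is not given here. Such shared directions, for Ccne2 and for Ccnd3 and Ccnb1 below, are descriptions.

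Ccnd3 (ENSMUSG00000034165, mm9 chr17:47642000-47736632, plus strand), the most abundant of the D-type cyclin genes here, was 301 and 393 CPM in the ground R9wt cultures of D1 and D5 and 543 and 398 CPM in the R9del cultures of D1 and D5. In space it was 82.1 and 148 CPM in the R9wt cultures of D1 and D5 and 260 and 345 CPM in the R9del cultures of D1 and D5. All 4 pairs pointed downwards, by 3.67-fold and 2.66-fold in R9wt and by 2.09-fold and 1.15-fold in R9del. The log2 fold change was -0.97 (SE 0.40, adjusted p = 0.219 in edgeR's quasi-likelihood test), and with the block the gene was called (edgeR adjusted p = 0.0427). The difference between the genotypes in this response was 0.94 on the log2 scale (SE 0.45) and was not called (adjusted p = 1 for the edgeR interaction term).

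Ccnd2 (ENSMUSG00000000184, mm9 chr6:127075797-127101066, minus strand) had values in the other direction. It was 15.2 and 23.3 CPM in the ground R9wt cultures of D1 and D5 and 18.6 and 7.62 CPM in the R9del cultures of D1 and D5, and in space 14.7, 48.8, 25.5 and 35.7 CPM in the same order. Both 5-day pairs lay more than 2-fold higher in space while the R9wt pair of day 1 was nearly level, and the groups overlapped. This gave a log2 fold change of 0.95 (SE 0.43, adjusted p = 0.266 in edgeR's quasi-likelihood test). The highest value, in Space_R9wt_D5, came from the library with the highest trophoblast marker sum (342 CPM), and the next, in Space_R9del_D5, from the library with the highest primitive endoderm marker sum. The part of such cells in the Ccnd2 values was not tested, and in bulk RNA fewer cells of a type and less RNA per cell cannot be told apart. Ccnd1, the remaining D-type gene, was higher in 2 and lower in 2 of the 4 space cultures (log2 fold change 0.09, SE 0.58, adjusted p = 0.957 in edgeR), and the sign turned with the block.

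Ccnb1 (ENSMUSG00000041431, mm9 chr13:101548605-101556525, minus strand), a mitotic cyclin gene, was 558 and 411 CPM in the ground R9wt cultures of D1 and D5 and 595 and 525 CPM in the R9del cultures of D1 and D5. In space it was 764, 526, 785 and 695 CPM in the same order. Each space culture was above its matched ground culture, with overlap across days and genotypes. The log2 fold change was 0.41 (SE 0.20), and it was not called (adjusted p = 0.319 in edgeR's quasi-likelihood test). Ccnb2 (ENSMUSG00000032218, mm9 chr9:70255496-70269361, minus strand), the other B-type gene, was 326, 637, 249 and 401 CPM in the ground cultures in that order and 377, 438, 309 and 390 CPM in the space cultures. Both D1 cultures were higher in space and both D5 cultures lower, and the log2 fold change was -0.09 (SE 0.28, adjusted p = 0.912 in edgeR).

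The inhibitor genes were among the low end of the set. Cdkn1b (ENSMUSG00000003031, mm9 chr6:134870419-134875531, plus strand) was 6.25 and 10.7 CPM in the ground R9wt cultures of D1 and D5 and 4.67 and 10.8 CPM in the R9del cultures of D1 and D5, and in space 8.42, 5.36, 3.63 and 6.22 CPM in the same order. Its groups overlapped, and the log2 fold change of -0.46 (SE 0.39) was not called (adjusted p = 0.604 in edgeR). For Cdkn2a the log2 fold change was -0.33 (SE 0.51, adjusted p = 0.802 in edgeR).

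**Figure D2:**
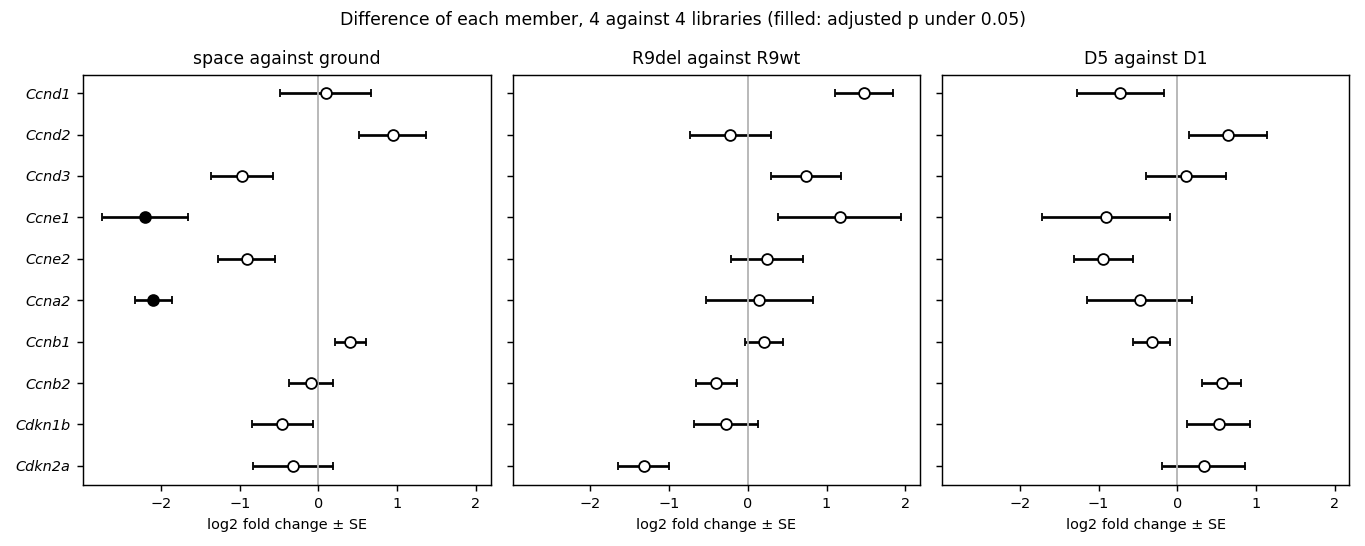
Log2 fold change of each of the 10 genes in the 3 comparisons of 4 against 4 libraries, from edgeR's quasi-likelihood test, with bars of 1 SE. Filled points have an adjusted p under 0.05, and these are Ccna2 (-2.10) and Ccne1 (-2.21) between space and ground.

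The proportion of one cyclin transcript to another was also compared within each library. The Ccnb1 to Ccna2 ratio of RPKM was 1.63 and 2.05 in the ground R9wt cultures of D1 and D5 and 1.84 and 2.00 in the R9del cultures of D1 and D5. In space it was 12.7, 9.13, 9.36 and 11.3 in the same order, with no overlap. The Ccne1 to Ccne2 ratio was 6.81 to 13.2 on the ground and 1.60 to 8.78 in space, lower in each space culture than in its match. The Ccnd1 to Ccnd3 ratio was 0.0507 to 0.180 on the ground and 0.119 to 0.395 in space, higher in each match. These ratios are descriptions and were not tested. The plot of ratios within each library shows them with the matched cultures joined. Ccna2 itself lay apart between the locations, so the separation of its ratio to Ccnb1 is not a further result. Also apart was the Ccnb2 to Ccna2 ratio, at 2.11 to 8.68 on the ground and 10.1 to 20.8 in space. So was Ccnd3 to Ccnd2, at 42.6 to 132 and 7.66 to 25.7 in the same order. Ccnb1 to Ccnb2 overlapped, at 0.236 to 0.873 and 0.439 to 0.929. The share of all gene pairs that lie apart is not given here.

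**Figure D3:**
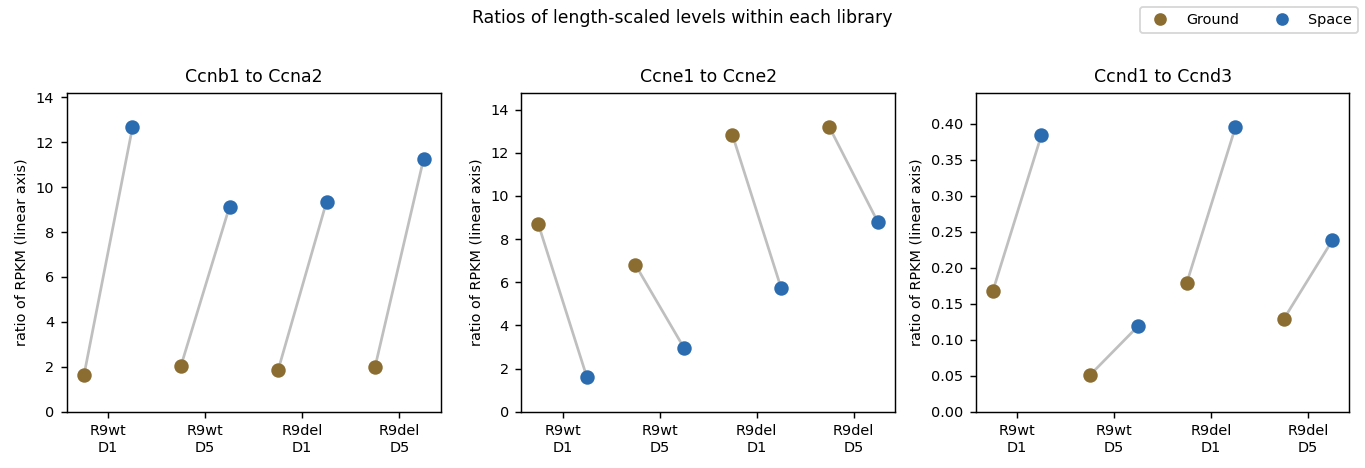
Ratio of RPKM of Ccnb1 to Ccna2, Ccne1 to Ccne2 and Ccnd1 to Ccnd3 in each of the 8 libraries (linear axes from 0), by genotype and culture duration, with grey lines joining matched ground and space cultures. The Ccnb1 to Ccna2 ratio is at most 2.05 on the ground and at least 9.13 in space.

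Some features of the gene models bear on how these counts can be read. The space against ground values differed with GC content across the whole table. Tested genes with annotation were split into 5 equal groups by the highest GC share of any 200 exonic bases. From the lowest group to the highest, the median log2 fold change was 0.08, 0.21, 0.17, -0.06 and -0.25. The shares of genes called lower in the same order were 1.49%, 0.771%, 0.9997%, 9.83% and 14.9%, so the highest 2 groups held most of the genes called lower. Ccna2, with a maximum of 78% GC, and Ccne1, with 77.5%, both lie in the highest group. Ccnd3 (74.5%), Ccne2 (73%), Ccnd1 and Cdkn1b (70.5% each) lie in the next group, and Ccnb1 (58%) lies in the lowest. By GC content over all exons, the medians of 5 equal groups were -0.08, 0.19, 0.21, 0.08 and -0.20, and 6.66%, 2.83%, 3.51%, 4.31% and 10.6% of genes were called lower. On that measure Ccna2 lies in group 2 and Ccne1 in group 3. The part of GC content in the space against ground values of these genes was not tested.

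**Figure D4:**
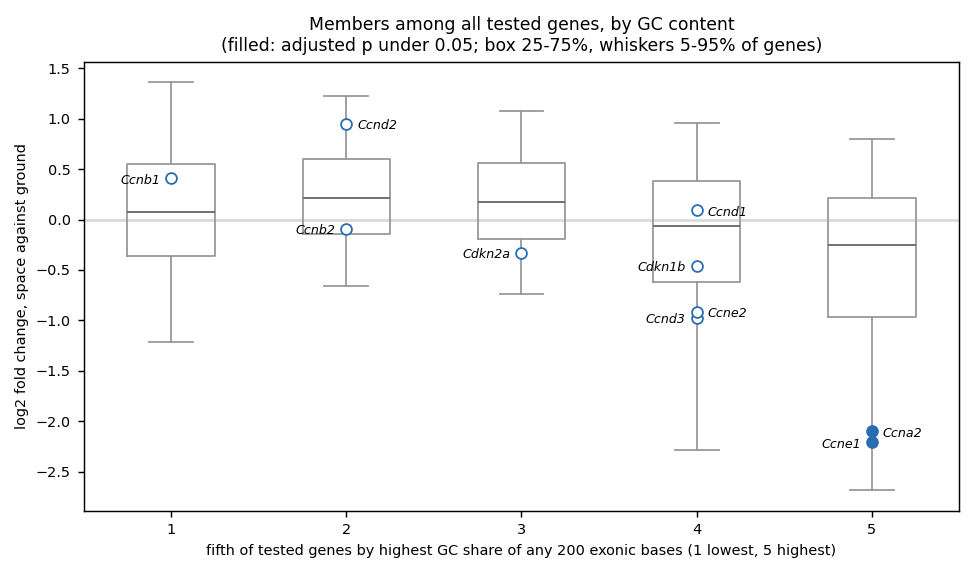
Log2 fold change between space and ground (vertical axis) in 5 equal groups of tested genes ordered by the highest GC share of any 200 exonic bases (horizontal axis), with grey boxes from the 25th to the 75th percentile of all tested genes, whiskers from the 5th to the 95th percentile, and points for the 10 genes, filled where the adjusted p is under 0.05. Ccna2 and Ccne1 lie in the highest group, below its box and within its whiskers.

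Neighbouring genes share sequence with several of the 10 on the opposite strand, and whether counting used strand is not given in the sources used here. Exosc9 covers 14.6% of the exon length of Ccna2. Its log2 fold change in space was 0.29 (adjusted p = 0.588 in edgeR), and its part in the Ccna2 counts was not tested. Bysl covers 15.7% of Ccnd3 and had a log2 fold change of -0.07 (edgeR adjusted p = 0.953). Ints8 covers 17.4% of Ccne2 and was itself called lower, with a log2 fold change of -1.10 (edgeR adjusted p = 0.0165). Its part in the Ccne2 counts was not tested. Of the 50-base stretches of Ccnb1, 30.8% occur elsewhere in the genome, as do 14.8% of those of Ccnd3, so the counts of these genes depend on how such reads were placed. No such stretch of Ccna2 or Ccne1 occurs elsewhere, and Ccne1 overlaps no other gene.

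The other cell cycle genes measured were 73 tested genes on 8 lists, of which 9 were called lower in space and none higher (edgeR's quasi-likelihood test), beside 5.13% and 1.19% of all tested genes. Their median log2 fold change was -0.14, beside 0.05 over all genes tested and -0.39 over the 10 members. Fzr1, which encodes the CDH1 activator of the anaphase-promoting complex, had the lowest value of the 13 turnover genes tested, at 30.3 ± 9.11 CPM in space and 211 ± 49.5 CPM on the ground (SD, n = 4 each), a log2 fold change of -2.80 (SE 0.28, edgeR adjusted p = 0.000259). Among 13 retinoblastoma family and E2F genes, 8 had values below 0 and 2 were called lower, E2f4 (log2 fold change -2.32, edgeR adjusted p = 0.000641) and E2f6 (-1.71, 0.00265), both of which encode mainly repressive factors. Of 9 genes for activation of CDKs, 7 had values below 0, the CDK-binding subunit genes Cks1b (-0.52) and Cks2 (-0.54) among them, and 2 were called lower. Both encode kinases that inhibit CDK1: Pkmyt1 (-1.17, edgeR adjusted p = 0.00606) and Wee1 (-0.78, 0.0388). Wee1 lost its call when any 1 library was left out (edgeR adjusted p 0.0548 to 0.132) with scaling by library size alone (0.0583) and with no filter on low counts (0.0668). Mybl2, which encodes B-Myb and is a partner in mitotic gene activation, was the called gene among 10 mitotic regulators (-0.90, edgeR adjusted p = 0.00963). Ccnl2 (-1.51) and Ccni (-1.16) were called among 13 other cyclins tested, and Cdkn2c (-2.67), which encodes the CDK4 inhibitor p18, among 4 other inhibitors. Cdkn1a, of the same list, was not low, at 211 to 1015 CPM over the 8 libraries, and was not called (-0.37, edgeR adjusted p = 0.749). Cdkn2c was near the floor in space, at 0.0715 to 0.350 CPM against 0.745 to 1.62 CPM on the ground, where 3 counts are 0.0327 to 0.0514 CPM, so its fold rests on few reads. Cdkn2c and Ccni each lost the call without 6 of the 8 libraries in turn (edgeR adjusted p 0.0544 to 0.0792 and 0.0522 to 0.103), Cdkn2c holding it without the D1 libraries Ground_R9del_D1 and Space_R9wt_D1 and Ccni without the same 2. Among the genes not called, Lin52, a subunit gene of the MuvB complex that works with B-Myb, had a log2 fold change of 1.15 (edgeR adjusted p = 0.0756), and Usp37, which encodes a deubiquitinase, one of 0.93 (edgeR adjusted p = 0.217). The values were -1.61 for Fbxo4, -1.45 for the inhibitor gene Cdkn1c, which encodes p57, and -1.32 for the cyclin gene Ccng2, none of them called (edgeR adjusted p 0.121 to 0.268). None of the 5 CDK genes was called. Cdk1, the partner of the B-type cyclins, had a log2 fold change of 0.01, and that of Cdk2, the partner of cyclins A and E, was 0.64 (edgeR adjusted p = 0.415). None of the 6 genes that act upstream of the inhibitors was called, Trp53 and Ezh2 among them.

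**Figure D5:**
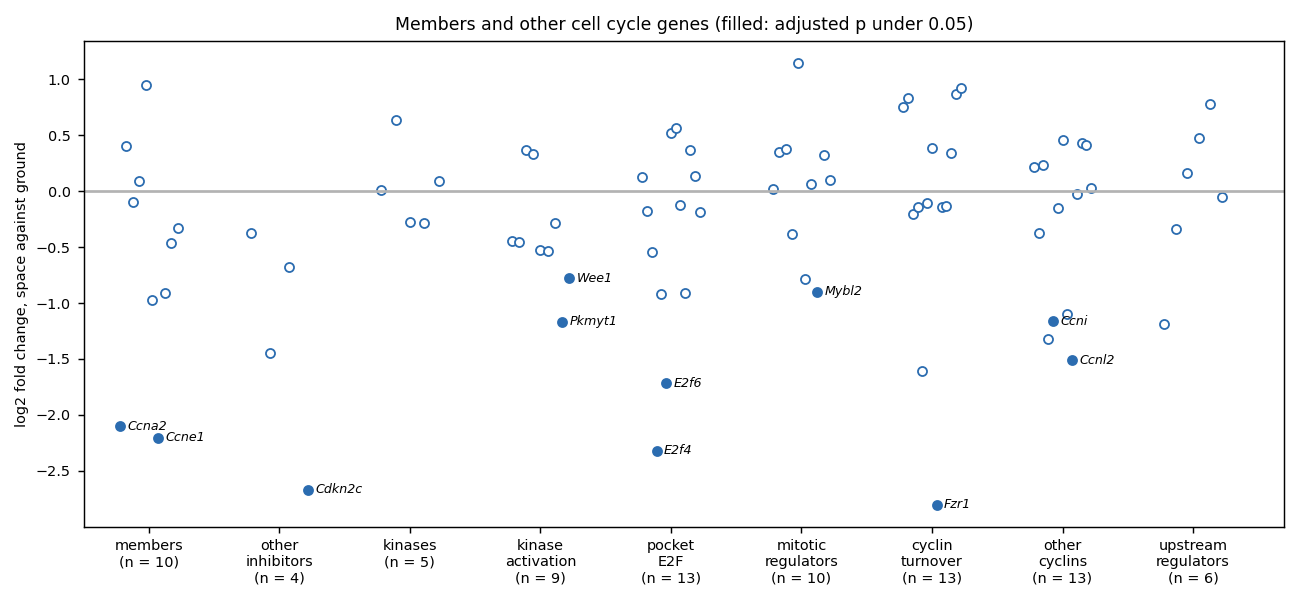
Log2 fold change between space and ground for the 10 genes (members) and for 73 other tested cell cycle genes, by list, 1 point per gene, from edgeR's quasi-likelihood test. Filled and named points have an adjusted p under 0.05, and all 11 of them lie below 0.

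The second comparison asks how the Rad9-/- cultures differed from wild type. In the unblocked fit the largest differences were in Ccnd1, 2.79-fold higher in R9del, and Cdkn2a, 2.51-fold lower. With the block for matched pairs the log2 fold change of Ccne1 (1.39) was larger in size than that of Cdkn2a (-1.35). Neither Ccnd1 nor Cdkn2a passed an adjusted p of 0.05 in the unblocked fit. No member was called there in either direction, whereas 1.19% of tested genes were called higher and 0.85% lower. At an unadjusted p under 0.05, edgeR's quasi-likelihood test gave 2 of 10 members, Ccnd1 and Cdkn2a, beside 20.2% of all tested genes. After adjustment edgeR's exact test and DESeq2's Wald test called the same 2 genes, beside 7.13% and 10% of all genes tested. Blocked on the pairs, edgeR called 3, beside 8.46%. At the threshold of the study, Ccnd1 was the member that passed upwards (6.39% of tested genes passed) and Cdkn2a the member that passed downwards (7.39%).

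Cell type markers differed between the genotypes as well. Neuroectoderm markers summed to 99.8 to 135 CPM in the R9del libraries and 26.6 to 45.8 CPM in the R9wt libraries. Most of that sum in R9del was Tubb3, at 72.5 to 117 CPM against 6.35 to 26.3 CPM, while Nes overlapped at 17.3 to 35.8 against 14.9 to 26.9 CPM. Of the 3 tested, Tubb3 was called higher in R9del (log2 fold change 2.68, adjusted p = 0.0328 in edgeR's quasi-likelihood test). The 4 trophoblast and 5 mesendoderm markers tested all had values below 0 (medians -1.68 and -1.14 on the log2 scale) and none was called. The part of these markers' cells in the genotype values was not tested.

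Ccnd1 (ENSMUSG00000070348, mm9 chr7:152115836-152125774, minus strand), whose product links growth factor signals to CDK4, was 85.9 CPM in Ground_R9wt_D1, 53.6 in Space_R9wt_D1, 33.9 in Ground_R9wt_D5 and 30.03 in Space_R9wt_D5. In R9del it was 166, 175, 87.4 and 140 CPM in the same order. The lowest R9del value lay just above the highest R9wt value, and Ccnd1 was the 1 member apart upwards (7.32% of tested genes were). The means were 142 ± 39.2 CPM in R9del and 50.9 ± 25.5 CPM in R9wt (SD, n = 4 each). The log2 fold change was 1.48 (SE 0.37, adjusted p = 0.0703 in edgeR's quasi-likelihood test). Blocked on pairs it was 1.56 and was called (edgeR adjusted p = 0.0142), and it was also called without Ground_R9wt_D1 (0.044). Oraov1, which overlaps 21.3% of the exon length of Ccnd1 on the opposite strand, was called higher in R9del (log2 fold change 2.49, edgeR adjusted p = 0.0351), at 17.1 to 34.8 CPM against 3.31 to 8.91 CPM. Its part in the Ccnd1 counts was not tested.

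Cdkn2a (ENSMUSG00000044303, mm9 chr4:88920377-88940557, minus strand) was 11.99 CPM in Ground_R9wt_D1, 8.74 in Space_R9wt_D1, 14.2 in Ground_R9wt_D5 and 12.8 in Space_R9wt_D5. In R9del it was 4.09, 4.72, 6.84 and 3.39 CPM in the same order. The groups did not overlap, and Cdkn2a was the 1 member apart downwards (6.89% of tested genes were). The means were 4.76 ± 1.49 CPM in R9del and 11.9 ± 2.32 CPM in R9wt (SD, n = 4 each). In log2 terms the fold change was -1.33 (SE 0.32, adjusted p = 0.0655 in edgeR's quasi-likelihood test), and with the block it was -1.35 and was called (edgeR adjusted p = 0.0302). The counts are per gene, so transcripts from the 2 starts shown above could not be separated.

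Ccne1 was higher in R9del in all 4 matched pairs, by 1.99-fold to 3.64-fold (against 3.16-fold to 8.82-fold between locations). Its log2 fold change was 1.17 (SE 0.78, adjusted p = 0.437 in edgeR's quasi-likelihood test). When 1 library was left out it lay between 0.50 and 2.06 and was not called. With the block, which sets the location difference aside, it was 1.39 and was called (edgeR adjusted p = 0.0115). Ccnd3 was also higher in all 4 pairs (log2 fold change 0.74, SE 0.45, edgeR adjusted p = 0.388), as was Ccnb1 (0.20, SE 0.24, edgeR adjusted p = 0.679). Ccnb2 was lower in all 4 (-0.40, SE 0.26, edgeR adjusted p = 0.432). These shared directions are descriptions, since the share of all tested genes with every pair in the same direction is not given here. Ccna2, Ccne2, Ccnd2 and Cdkn1b had log2 fold changes between -0.28 and 0.24 with pairs in both directions. Of the other 73 cell cycle genes, 1 was called higher and none lower, beside 1.19% and 0.85% of all tested genes. Fbxw7, which encodes the ubiquitin ligase subunit that targets cyclin E, was 140 ± 26.8 CPM in R9del and 52.8 ± 15.5 CPM in R9wt (SD, n = 4 each), a log2 fold change of 1.41 (edgeR adjusted p = 0.0407). That call was lost without each of 7 of the 8 libraries in turn (edgeR adjusted p 0.0509 to 0.119), and with no filter on low counts (0.0541), and held without Space_R9wt_D5.

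The last comparison asks how 5 days of culture differed from 1 day. By edgeR's quasi-likelihood test no gene was called in either direction at an adjusted p under 0.05 (0% of tested genes both ways), and so no member was. At an unadjusted p under 0.05, the same test gave 2 of 10 members, Ccnb2 and Ccne2, beside 4.32% of all tested genes. After adjustment edgeR's exact test and DESeq2's Wald test called no member, beside 34 and 90 of all genes tested. No member passed the threshold of the study, which 2.36% of tested genes passed upwards and 1.08% downwards. The direction was shared by matched cultures in several genes. This is a description, since the share of all tested genes with 4 pairs in 1 direction is not given here. Ccnb2 was higher on day 5 in all 4 pairs, at 390 to 637 CPM against 249 to 377 CPM, and its groups lay apart (1.62% of tested genes lay apart upwards). Its log2 fold change was 0.57 (SE 0.24, edgeR adjusted p = 1). Ccne2 was lower on day 5 in all 4 pairs, at 13.3 to 27.9 CPM against 25.8 to 56.5 CPM, with a log2 fold change of -0.94 (SE 0.37, edgeR adjusted p = 1). Ccnd1 (-0.72, SE 0.55), Ccna2 (-0.48, SE 0.67) and Ccnb1 (-0.32, SE 0.24) were also lower in all 4 pairs and were not called (edgeR adjusted p = 1 for each). The inhibitor genes had values of 0.53 (SE 0.40) for Cdkn1b and 0.33 (SE 0.52) for Cdkn2a, each higher in 3 of 4 pairs and not called. Trophoblast markers summed to 12.3 to 40.5 CPM on day 1 and 32.2 to 342 CPM on day 5, primitive endoderm markers to 440 to 740 and 667 to 1853 CPM, and fibroblast markers to 28.3 to 32.6 and 34.4 to 89.9 CPM. Of those tested, all 4 trophoblast, all 6 primitive endoderm and all 7 fibroblast markers had values above 0 (medians 2.56, 1.38 and 0.52 on the log2 scale), with none called. The part of such cells in the duration values was not tested.

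Whether the difference along 1 variable depended on another was tested with interaction terms across 22561 genes. By edgeR's quasi-likelihood test no member was called for location and genotype (0% of genes called), for location and culture duration (0.00443%) or for genotype and culture duration (0%). At an unadjusted p under 0.05 edgeR gave 0, 1 and 0 of the 10 members, beside 3.12%, 6.59% and 4.31% of all genes tested. DESeq2's Wald test called no member after adjustment, beside 34, 76 and 156 of all genes in the same order. The member past the unadjusted level was Ccne1, whose space against ground difference was smaller on day 5 by 0.92 on the log2 scale (SE 0.38, edgeR adjusted p = 0.733). For Ccna2 the 3 interaction terms were 0.14 (SE 0.36), 0.29 (SE 0.35) and 0.06 (SE 0.38) on the log2 scale and none was called.

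For each of the 10 genes the gene with the most similar pattern was sought among 9393 named genes outside the lists with a mean of at least 10 CPM, by Pearson's r of log2 CPM over the 8 libraries. The libraries share their scaling, and the best of many genes is high by selection. Ccna2 was closest to Haus4, a subunit gene of the spindle augmin complex (r = 0.996), which stood at 14.7 to 20.8 CPM in space and 56.6 to 86.7 CPM on the ground. Ccne1 was closest to Zfp259 (r = 0.987), Ccnd3 to Cdc37l1 (0.995), Ccnd1 to Crmp1 (0.985) and Cdkn2a to the claudin gene Cldn3 (0.983). Ccnb1 was closest to Mical1 (0.977), Ccnb2 to Ndufa12, a subunit gene of mitochondrial complex I (0.972), Ccne2 to Picalm (0.962), Ccnd2 to Lrch3 (0.937) and Cdkn1b to Trappc4 (0.910).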

How the data were processed

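mRNA-seq was analysed in 8 mESC libraries, 1 per condition. Per the labels and the study's methods, the authors fixed the cells in RNAlater within the culture devices, extracted total RNA with TRIzol, prepared Illumina mRNA-Seq libraries, sequenced paired reads of 100 bases and aligned them to mm9 with TopHat2 2.0.9. The deposited values are whole-number counts per Ensembl gene identifier. The counting program, annotation and strand setting are not given in the sources used here.

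Symbols came from GENCODE annotation of mm9, which also gave exon length, GC content and overlap. Counts were tested in edgeR 4.0.16 (R 4.3.3) by the quasi-likelihood test with TMM factors, filterByExpr (minimum count 10) and 1 term per comparison. Benjamini-Hochberg adjustment ran over all genes tested. The study pooled its libraries in this way for location and for genotype, and compared culture durations only between single libraries. Calls needed an adjusted p under 0.05. Beside them stands the threshold of the study (fold change of at least 2, unadjusted p under 0.05), applied to these fits. The shares of genes past it are therefore not the counts that the study reported. The SE is the coefficient divided by the root of its F statistic. Interaction terms were fitted with the other variable as covariate. CPM used TMM-scaled library sizes. The scripts were tested on simulated data. Alternatives were DESeq2 1.42.0, edgeR's exact test, other scaling, no filter, covariates, a block of matched pairs and leaving out each library.

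Matched cultures, defined by the labels, deviated together from their group means (correlation across genes 0.292 to 0.677 for location, 0.435 to 0.597 for genotype and 0.428 to 0.690 for culture duration), so the pairs were used as the block. No 2 libraries held identical counts. The members and lists were chosen with earlier results of these data known. All 10 members are named. Other cell cycle genes are named where called, with some of the larger differences of a list that were not called. The markers, Cks1b, Cdkn1a, partner CDK genes and upstream genes named besides were chosen after their values were seen. Cdkn2d and Fbxo31 were not analysed here.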

Additional observations from a re-analysis of the deposited data

Results flagged for a closer look

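In each group of 4 libraries, the highest and the lowest value of each of the 10 genes was compared with the others by Dixon's test, 60 groups in all, of which chance flags about 1 in 20. The test picked out 1 value. Ccna2 in Space_R9del_D1, at 69.9 CPM, stood above the other 3 space libraries, which lay between 47.9 and 51.4 CPM.

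In 4 cases both matched pairs of one level moved one way and both pairs of the other level the opposite way. The share of all tested genes with such a pattern is not given here, so these cases cannot be read as particular to the members. For Ccnd1 the mean log2 ratio of space to ground was 0.38 in R9del and -0.43 in R9wt, a difference of 0.80. For Ccnb2 the mean log2 ratio of space to ground was -0.29 on day 5 and 0.26 on day 1, a difference of -0.55. For Ccnd2 the mean log2 ratio of R9del to R9wt was -1.03 on day 5 and 0.54 on day 1, a difference of -1.58. For Cdkn1b the mean log2 ratio of R9del to R9wt was 0.11 on day 5 and -0.82 on day 1, a difference of 0.93. None of these 4 differences was called by the interaction terms (adjusted p 0.741 to 1 in edgeR's quasi-likelihood test).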

How the results depend on the processing

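The call of Ccna2 between space and ground held under every alternative run (log2 fold change -2.26 to -2.01). The count of members called between space and ground was 2, and became 1 with no filter on low counts, 4 with the matched pairs as a block, 4 with the other 2 variables as covariates, and 1 to 2 when 1 library was left out. Between R9del and R9wt the count was 0, and became 2 by edgeR's exact test, 2 by DESeq2's Wald test, 3 with the block, 3 with covariates and 0 to 1 when 1 library was left out. Between D5 and D1 it was 0 throughout. At the threshold of the study, leaving out 1 library gave 2 to 5 members between space and ground (5 without Ground_R9wt_D5, 4 without Space_R9del_D1, 4 without Space_R9wt_D1), and 0 to 1 between D5 and D1 (1 without Ground_R9del_D5, Ground_R9wt_D5, Space_R9del_D5, Space_R9del_D1 or Space_R9wt_D1). The share of all tested genes past that threshold in these fits is not given here, so these counts cannot be read as particular to the members. With scaling by library size alone, 2 members were higher in R9del by more than 2-fold in all 4 pairs, against 0. For this count too the share of all tested genes is not given here, and the same limit holds. The space against ground value of Ccnd1 turned from 0.09 to -0.026 with the block and -0.024 with covariates, and lay between -0.35 and 0.50 when 1 library was left out. Other signs that turned on leaving out 1 library had ranges of -0.29 to 0.20 for Ccnb2 between space and ground, -0.56 to 0.30 for Ccnd2, -0.22 to 0.54 for Ccne2 and -0.27 to 0.76 for Ccna2 between R9del and R9wt, and -0.18 to 0.60 for Ccnd3 between D5 and D1. The block changed no other call of the 10 genes. All genes called between R9del and R9wt numbered 417, and 0 without Ground_R9wt_D5, Ground_R9del_D1, Space_R9del_D1 or Space_R9wt_D1 in turn, 93 without Ground_R9del_D5, 105 without Space_R9del_D5, 76 without Space_R9wt_D5, 157 without the filter, 1459 by edgeR's exact test, 2046 by DESeq2, 1475 with covariates and 1733 with the block. Between space and ground they numbered 1294, with 859 without Ground_R9wt_D1, 826 without Ground_R9del_D5, 2383 by DESeq2 and 2166 with covariates. Between D5 and D1 they numbered 0, with 34 by edgeR's exact test and 90 by DESeq2, and for the 3 interactions 0, 1 and 0, with 34, 76 and 156 by DESeq2. The cause of these changes was not tested. With 1 library per condition, no spread between cultures of 1 condition could be measured. The lowest count of the 10 genes was 198, for Cdkn2a in Space_R9del_D5, and the effect of depth on the calls was not tested.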
